A study of Homo sapiens with 24 samples.

Results

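The 2 control treatments of the series, a scrambled siRNA and a vehicle, were compared with each other across all genes in LNCaP, a cell line from a lymph node metastasis of a human prostate cancer that responds to androgen. All arrays titled Scrambled and all titled Vehicle were taken, at 12 hours and at 24 hours, which gave 6 arrays against 6, or 12 of the 24 arrays of the series. The other 12 arrays hold cells given siOGT, an siRNA against O-GlcNAc transferase (OGT), or ST045849, a small molecule that inhibits OGT. The series concerns how this sugar modification bears on the MYC protein. Each of the 4 groups compared held 3 arrays, described by the submitters as biological replicates, and no source says whether they came from separate cultures, so the p-values measure the spread between these samples.

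All cells were grown in RPMI with 10% serum and were seeded onto the siRNA or onto the drug or its vehicle, per the labels' protocols. No source used here gives the transfection reagent, the solvent of the vehicle or the scrambled sequence. The scrambled siRNA arrays therefore differ from the vehicle arrays in the RNA, in whatever delivered it and in the solvent, and effects of these cannot be told apart. No untreated cells were used here. LNCaP is 1 tumour line with its own genotype, and a bulk RNA sample cannot tell fewer cells of a kind from less RNA per cell.

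A scrambled siRNA is a short double-stranded RNA designed to match no transcript of the cell, delivered in the same way as the targeting siRNA. Inside the cell, short duplexes are loaded into Argonaute proteins, which use one strand as a guide to silence matching transcripts, and Dicer is the nuclease that makes such duplexes from longer RNA. Double-stranded RNA can also be sensed by RIG-I, MDA5 and PKR, which leads to interferon-stimulated genes, and carriers such as cationic lipids enter cells by endocytosis and add lipid to them. For these reasons genes of RNA sensing, interferon response, silencing, endosomes, lysosomes and lipid synthesis were described first.

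The median raw intensity lay between 102 and 126 on the scrambled arrays and between 109 and 124 on the vehicle arrays, and 13993 to 16246 and 14973 to 15540 probes were detected. At 12 hours the correlation of a scrambled with a vehicle array across genes had a median of 0.991, against 0.992 among scrambled and 0.991 among vehicle arrays. At 24 hours it was 0.986 to 0.992 with a median of 0.988. Pairs within a group gave 0.989 to 0.993 at 24 hours, so that the median between groups lay below every pair within a group. The first principal component of all 24 arrays held 34.2% of the variance. Along it the ST045849 arrays, at 14.1 to 29.2, stood apart from all others, at -12.9 to -1.27. The vehicle arrays lay at -12.9 to -12.4 or at -3.31 to -2.67, and array sets were cut by this gap. By it, 12 hours replicate 3 and 24 hours replicates 1 and 3 of every treatment were taken as a first set. The other replicates were taken as a second set. Each set held 3 scrambled and 3 vehicle arrays. All 10 luminal prostate markers measured were detected on all 12 arrays, and the log2 of their mean intensity was 9.69 to 9.94 on the scrambled and 9.89 to 10.1 on the vehicle arrays. None of 6 basal markers was detected (4.44 to 4.65 against 4.53 to 4.67). Of 10 stromal markers, VIM and ACTA2 were detected, and COL1A1, COL1A2 and COL3A1 were detected on no array. The mean over all 10 gave 6.26 to 6.88 against 6.30 to 6.78. VIM itself averaged 7.74 on the scrambled and 7.89 on the vehicle arrays, and ACTA2 9.08 and 8.98. ENO2 was detected of 7 neuroendocrine markers, averaging 6.51 on the scrambled and 6.41 on the vehicle arrays, and CHGA and SYP on no array. The mean over all 7 gave 4.97 to 5.28 against 4.96 to 5.31. CD68 and HLA-DRA were detected on all arrays of 9 immune markers, LYZ on 1 vehicle array, and PTPRC on none. The mean over all 9 gave 5.87 to 6.18 against 5.86 to 5.97. CD68 itself averaged 7.68 on the scrambled and 7.66 on the vehicle arrays, and HLA-DRA 7.37 and 7.13.

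Few genes differed between the scrambled siRNA and the vehicle beyond the spread of the arrays. Of 10345 genes tested, 1 was higher with the scrambled siRNA at an adjusted p under 0.05 (0.00967% of genes, limma with Benjamini-Hochberg adjustment), and 0 (0%) were lower. At an unadjusted p under 0.05, 621 genes (6.0%) were higher and 404 (3.91%) were lower. By sign alone, 5652 genes (54.6%) stood above 0 and 4693 below. The counts of the gene lists below are to be read beside these shares. The absolute difference was under 0.2 on the log2 scale for 87.0% of genes, with a median of 0.08, and the median standard error was 0.09. For 9921 genes (95.9%) the unadjusted 95% interval of the difference lay within 1.5-fold in both directions. In 85 genes (0.822%) the 6 scrambled arrays did not overlap the 6 vehicle arrays.

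**Figure D1:**
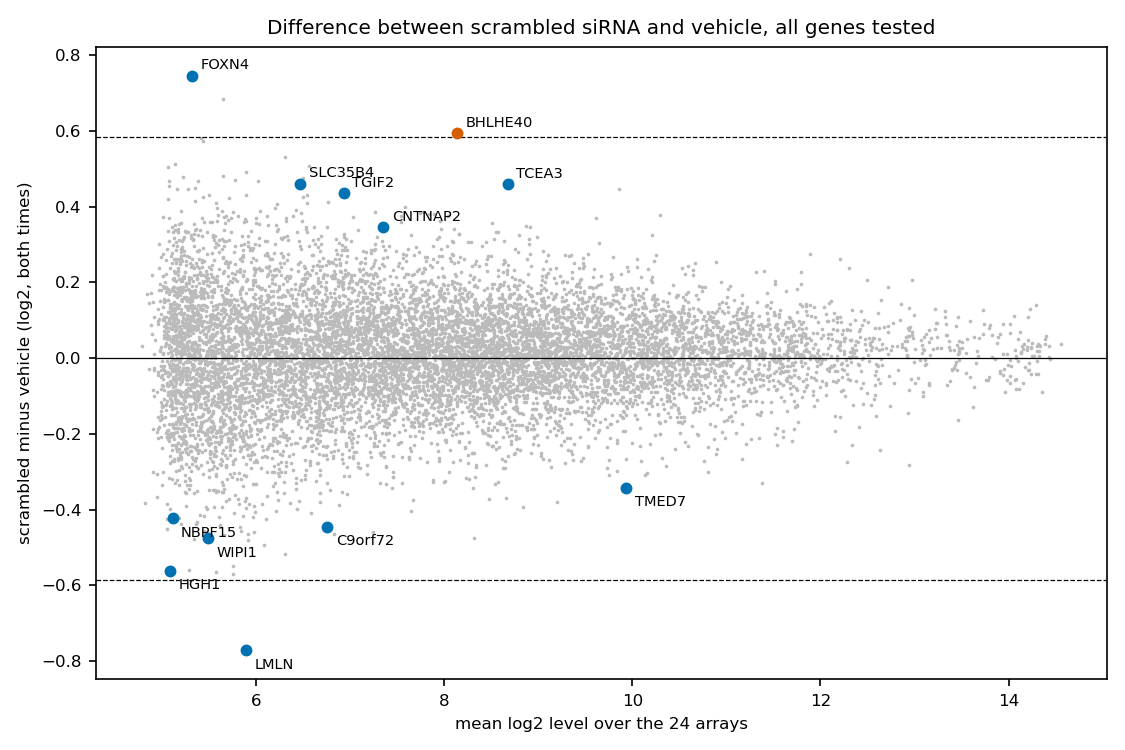
Difference between scrambled siRNA and vehicle over both times (vertical axis, log2) against the mean log2 level of each gene over the 24 arrays (horizontal axis). Each point is 1 of 10345 genes. Large points are the 12 genes named by smallest p, with BHLHE40, the gene that passed the test, in orange. Dashed lines mark a fitted difference of 1.5-fold. Of the 4 genes beyond them, FOXN4 was detected on no vehicle array and LMLN on 2 of 6 scrambled arrays, so that their plotted differences lie partly at background.

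BHLHE40 rose. It encodes DEC1, a basic helix-loop-helix repressor that binds the E-box CACGTG and is known from the circadian clock and the response to low oxygen. Its promoter, taken from RefSeq (GRCh38.p14, chr3:4979187-4979486, plus strand, a window around the start of transcription), is shown with the E-box in capitals, because the protein is known to bind this motif.
BHLHE40: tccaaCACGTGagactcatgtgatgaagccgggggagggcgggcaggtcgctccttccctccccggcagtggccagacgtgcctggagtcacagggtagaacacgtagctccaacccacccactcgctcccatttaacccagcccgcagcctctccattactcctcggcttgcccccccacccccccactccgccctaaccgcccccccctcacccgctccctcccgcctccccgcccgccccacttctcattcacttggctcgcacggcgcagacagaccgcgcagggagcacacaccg
The motif begins 245 bases before the start. CACGTG, which reads the same on both strands, was found in 7.43% of all 27305 promoters of this length and in 10.7% of the 8425 promoters of genes tested, and its presence is a description of the sequence only.

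The BHLHE40 level on the log2 scale was 8.34, 8.45 and 8.58 on the 3 scrambled arrays of 12 hours and 8.49, 8.43 and 8.66 on those of 24 hours. On the vehicle arrays it was 8.04, 7.71 and 8.02 at 12 hours and 7.95, 7.76 and 7.89 at 24 hours. Every scrambled array stood above every vehicle array. The difference was 0.60 ± 0.08 (SE) on the log2 scale, or 1.51-fold, with a 95% interval of 0.42 to 0.77 and an adjusted p of 0.0436 (limma). The difference was 0.53 at 12 hours and 0.66 at 24 hours, and 0.62 and 0.57 within the first and second array sets. The call rested on a narrow margin. With median scaling in place of quantile normalization the adjusted p was 0.484. BHLHE40 also did not pass when same-numbered arrays were fitted as pairs. The adjusted p was 0.0294 without scrambled 12 hours replicate 1 and 0.0391 without vehicle 12 hours replicate 3. It lay between 0.0536 and 0.185 without any one of the other 10 arrays, while the difference stayed between 0.56 and 0.63.

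The genes of next smallest p with higher levels were TCEA3, FOXN4, CNTNAP2, TGIF2 and SLC35B4, and none of them passed the test. TCEA3, a transcription elongation factor of the TFIIS family, stood at 8.76, 8.96 and 8.82 on the scrambled arrays of 12 hours and 8.85, 8.94 and 8.75 on those of 24 hours. The vehicle arrays gave 8.56, 8.46 and 8.38, then 8.25, 8.34 and 8.32, and no vehicle array reached a scrambled one. The difference was 0.46 ± 0.07 (SE; limma adjusted p = 0.0522), and without scrambled 12 hours replicate 1 it was 0.49 (adjusted p = 0.0294).

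FOXN4, a forkhead transcription factor known from the developing retina and spinal cord, was detected on 5 of 6 scrambled arrays and on 0 of 6 vehicle arrays. Its scrambled levels were 5.46, 5.88 and 5.64 at 12 hours and 5.74, 6.13 and 5.78 at 24 hours. Its vehicle levels were 5.16, 4.78 and 5.28, then 4.84, 5.05 and 5.04, so that the groups did not overlap. Because the probe was not above background with vehicle, the fold is a bound, set against the lowest detected signal of each vehicle array, and FOXN4 stood at least 1.28-fold higher (limma adjusted p = 0.0522). Without scrambled 12 hours replicate 1 or vehicle 12 hours replicate 3 the adjusted p was 0.0294 or 0.0391.

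CNTNAP2, a neurexin-family adhesion protein, stood between 7.54 and 7.61 on the scrambled and between 7.10 and 7.37 on the vehicle arrays, a difference of 0.35 ± 0.06 (adjusted p = 0.135). TGIF2, a homeodomain repressor of TGF-beta signalling, differed by 0.44 ± 0.08 (adjusted p = 0.148), with 7.0 to 7.32 against 6.58 to 6.95. SLC35B4, a transporter that carries UDP-xylose and UDP-N-acetylglucosamine into the secretory pathway, differed by 0.46 ± 0.09 (adjusted p = 0.148), with 6.49 to 7.02 against 6.10 to 6.37. In all 3 genes the groups were separate. These genes were chosen by their p in this comparison, so their separation is a description.

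The genes of smallest p with lower levels were WIPI1, HGH1, LMLN, TMED7, C9orf72 and NBPF15, none of which passed the test. LMLN, a metallopeptidase known from Drosophila as invadolysin, stood at 5.89, 5.69 and 5.24 with the scrambled siRNA at 12 hours and 4.69, 5.12 and 4.95 at 24 hours. With vehicle it stood at 6.03, 6.04 and 6.01, then 5.98, 6.07 and 6.08. The vehicle arrays varied little, the scrambled arrays lay below all of them, and the probe was detected on 2 of 6 scrambled and 6 of 6 vehicle arrays. The difference was -0.77 ± 0.14 over both times (limma adjusted p = 0.135) and -0.42 at 12 hours. At 24 hours the probe was detected on 0 of 3 scrambled arrays, with measured means of 4.92 against 6.05, so that the fold is a bound, and LMLN stood at least 1.41-fold lower (adjusted p = 0.0614). Without scrambled 12 hours replicate 1 the difference over both times was -0.87 (adjusted p = 0.0294). The adjusted p at 24 hours was under 0.05 without scrambled 12 hours replicate 1 (0.0309), without scrambled 12 hours replicate 3 (0.0063) and without vehicle 12 hours replicate 3 (0.048).

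WIPI1, which binds phosphatidylinositol 3-phosphate on forming autophagosomes, stood at 5.19 to 5.29 with the scrambled siRNA and 5.37 to 5.84 with vehicle, and was detected on 1 and 5 of 6 arrays. Its difference was -0.48 ± 0.08 (adjusted p = 0.114), and without vehicle 24 hours replicate 1, its lowest vehicle array, it was -0.54 (adjusted p = 0.0127). At 24 hours WIPI1 was detected on no scrambled array, so that the fold there is a bound, at least 1.06-fold lower. TMED7, a p24-family cargo protein of the endoplasmic reticulum and Golgi, stood at 9.63 to 9.80 against 9.95 to 10.2, with a difference of -0.34 ± 0.06 (adjusted p = 0.144). A second TMED7 probe gave -0.16.

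C9orf72, whose protein takes part in endosomal traffic and autophagy, stood at 6.19 to 6.69 against 6.70 to 6.95. Its difference was -0.45 ± 0.09 (adjusted p = 0.148), and 3 further probes gave -0.27 to -0.17. Without scrambled 12 hours replicate 1, its highest scrambled array, the difference was -0.51 (adjusted p = 0.0367). HGH1, a chaperone for a translation elongation factor, and NBPF15, of a family of near-identical copies that a probe may not separate, were detected on no scrambled array and on 5 and 2 of 6 vehicle arrays. Their measured means were 4.91 against 5.47 and 4.93 against 5.36, and no fold is given because both lie at the edge of detection.

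**Figure D2:**
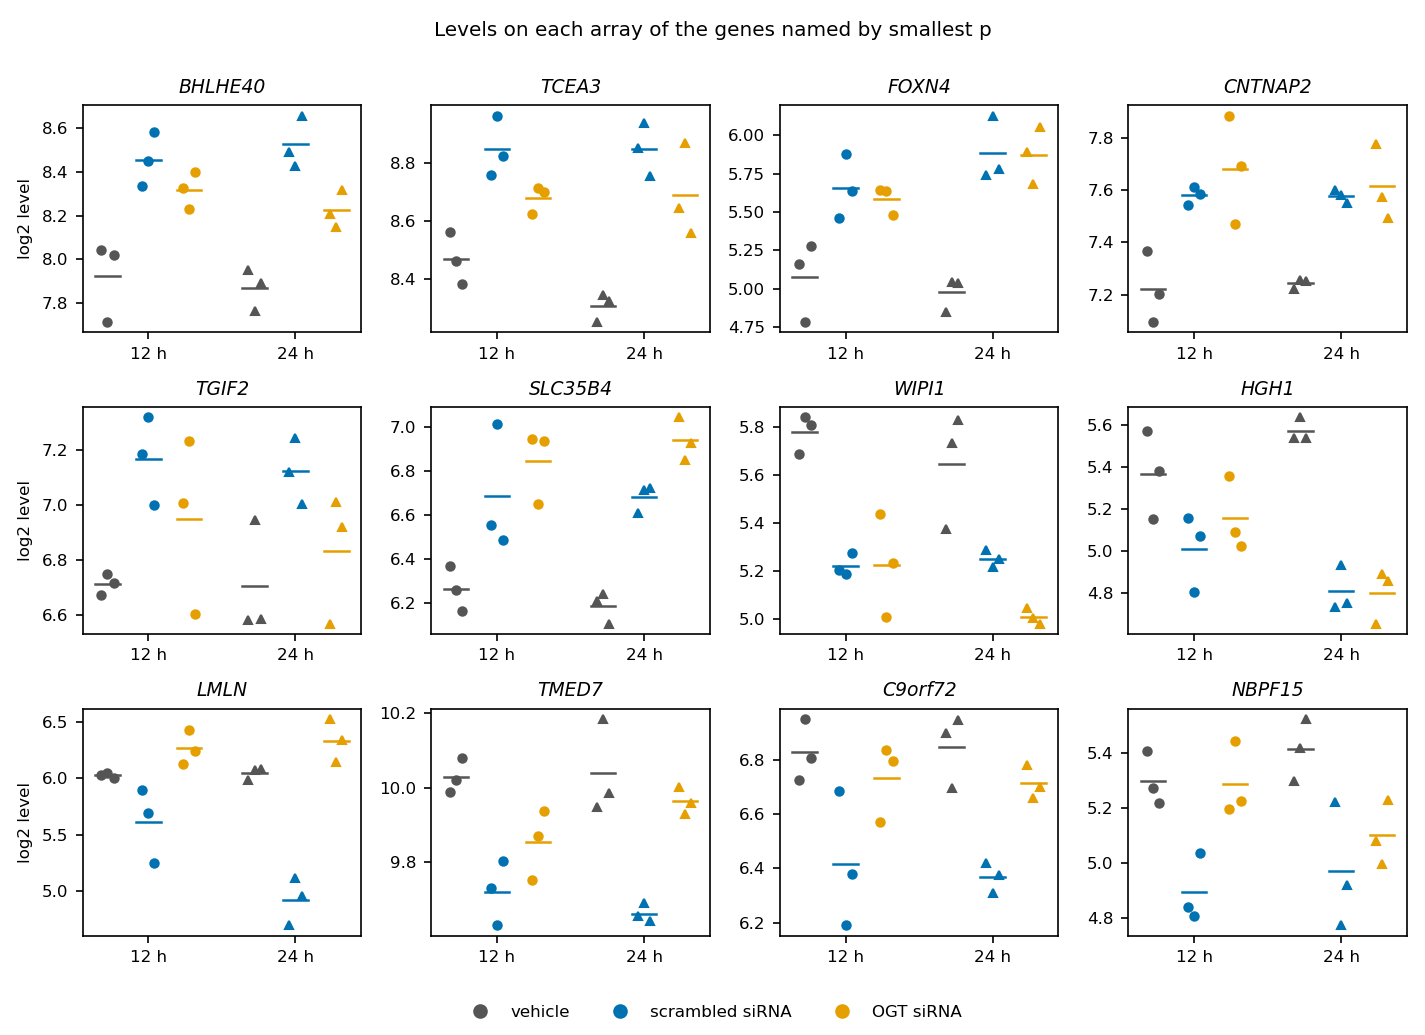
Log2 level on each array of the 12 genes named by smallest p, with circles for 12 hours, triangles for 24 hours and a bar for the mean of 3 arrays. Vehicle is grey, scrambled siRNA blue and OGT siRNA orange, and each panel has its own vertical scale. The scrambled and vehicle arrays are separate in 10 panels and overlap in HGH1 and NBPF15. They are separate in 0.822% of all genes tested. The panels were chosen by p in this comparison, so their separation is a description.

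Beside BHLHE40 and LMLN, 1 gene measured on arrays of both groups differed by 1.5-fold or more. TMEM161B, a membrane protein, differed by 0.69 ± 0.15 (adjusted p = 0.177) and was detected on 6 of 6 scrambled and 3 of 6 vehicle arrays. It was named after its value was seen.

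The targets of the study were close in the 2 controls. OGT stood at 8.76, 8.95 and 8.99 with the scrambled siRNA at 12 hours and at 8.96, 8.61 and 9.10 at 24 hours. With vehicle it stood at 8.78, 9.17 and 9.01, then 8.85, 8.99 and 8.99, and the groups overlapped. The difference was -0.07, with a 95% interval of -0.27 to 0.13 (limma adjusted p = 0.845), and a second probe gave -0.10. An exact permutation test (two-sided, 6 against 6 arrays, relabelled within times) gave p = 0.485 for OGT. On the 6 siOGT arrays OGT lay between 6.60 and 7.82, below every array of either control. OGA, the enzyme that removes the modification, differed by -0.05 (interval -0.20 to 0.10).

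MYC stood between 11.27 and 11.46 on the scrambled and between 11.24 and 11.45 on the vehicle arrays. The difference was 0.01, with an interval of -0.12 to 0.14, and a second probe gave -0.07. KLK3, which encodes prostate-specific antigen, differed by -0.07 (interval -0.30 to 0.16). The cell cycle inhibitor CDKN1A differed by 0.11 (-0.24 to 0.46), the stress factor DDIT3 by 0.03 (-0.16 to 0.22) and the chaperone HSPA5 by 0.11 (-0.03 to 0.25). The signs of MYC, KLK3, CDKN1A, DDIT3 and HSPA5 turned in at least 1 alternative processing.

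The genes of double-stranded RNA sensing that were detected well enough to be tested, 10 of 19 with a probe, showed small differences. RIG-I was not among those tested. Of these 10 members, 0 passed the limma test. Only IFIH1, which encodes the sensor MDA5, was higher at an unadjusted p under 0.05 (10%, beside 6.0% of all genes). IFIH1 stood at 6.61, 6.97 and 6.73 on the scrambled arrays of 12 hours and 6.83, 6.77 and 6.52 on those of 24 hours, against 6.72, 6.38 and 6.67, then 6.56, 6.51 and 6.35, with vehicle. The groups overlapped, and the difference was 0.20 ± 0.09 (adjusted p = 0.469). EIF2AK2, which encodes PKR, differed by -0.02, its activator PRKRA by -0.11, the adaptor MAVS by -0.08 and the kinase TBK1 by -0.05. The median of the list was -0.0048, beside 0.0123 over all genes tested.

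Of 38 interferon response genes with a probe, 22 were detected well enough to be tested. Of these 15 (68.2%, beside 54.6% of all genes) stood above 0, and the median was 0.09. None passed the limma test, and 3 (13.6%, beside 6.0% of all genes) were higher and 0 lower at an unadjusted p under 0.05. PARP9, an ADP-ribosyltransferase partner induced by interferon, stood at 8.01, 8.03 and 7.98, then 8.19, 7.81 and 8.25, with the scrambled siRNA. Vehicle gave 7.76, 7.86 and 7.93, then 7.66, 7.60 and 7.56, and the groups overlapped by 1 scrambled array of 24 hours. The difference was 0.32 ± 0.09 (adjusted p = 0.256), and a second probe gave 0.08.

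IRF1, an interferon-induced transcription factor, stood at 6.20 to 6.41 with the scrambled siRNA and 5.83 to 6.17 with vehicle, without overlap, a difference of 0.23 ± 0.07 (adjusted p = 0.30). MX1, an antiviral GTPase, stood at 5.68, 6.43 and 6.21, then 6.35, 6.20 and 6.03, against 5.98, 5.75 and 5.97, then 5.67, 5.45 and 5.86. Its difference was 0.37 ± 0.13 (adjusted p = 0.36), with 1 scrambled array among the vehicle arrays. IFIT2 differed by 0.31 ± 0.15 (adjusted p = 0.505) and IFIT1, which binds foreign RNA ends, by 0.30 with an interval of -0.11 to 0.70. The vehicle arrays spread more widely in IFIT1, from 4.80 to 6.11, than the scrambled arrays, from 5.62 to 6.22. The low end of the vehicle range lies where FOXN4 was not detected, so that the IFIT1 difference may rest in part on signal near background. ISG15 differed by 0.06, HERC5 by 0.02, OAS3 by -0.02 and IFI44 by -0.01.

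The median of the interferon list relative to the vehicle mean of the same time was 0.11, 0.04 and 0.11 on the scrambled arrays of 12 hours and 0.13, 0.06 and 0.09 on those of 24 hours. On the vehicle arrays it lay between -0.01 and 0.06, so that 1 scrambled array fell within their range and 1 at its edge. Of 22 NF-kB targets and cytokines with a probe, only 7 were tested. Of these 0 passed the limma test and 0 had an unadjusted p under 0.05. Among them SOD2 differed by 0.11, CD83 by 0.12, NFKBIA by -0.06 and NFKB2 by -0.12. Dimmer second probes of SOD2, CD83 and NFKB2 gave -0.13, -0.14 and 0.16, so that the probes of these genes disagreed in direction.

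Of 15 genes of the silencing machinery, 12 (80.0%, beside 54.6% of all genes) stood above 0 with a median of 0.05. None passed the limma test, and 2 (13.3%, beside 6.0% of all genes) were higher at an unadjusted p under 0.05. DICER1 stood at 7.95, 8.04 and 8.48 with the scrambled siRNA at 12 hours and 8.25, 8.17 and 8.29 at 24 hours, against 8.03, 8.06 and 7.95, then 7.95, 7.86 and 7.68, with vehicle. The groups overlapped at 12 hours and were separate at 24 hours. The difference was 0.27 ± 0.10 (adjusted p = 0.363), with 0.48 in the first and 0.07 in the second array set, and a second probe gave 0.19. XPO5, which exports precursor microRNAs from the nucleus, differed by 0.14 and TARBP2, a partner of Dicer, by 0.15. A second TARBP2 probe gave 0.03. TSNAX, of the nuclease complex that clears cut passenger strands, differed by -0.27 ± 0.15. AGO2, the slicing Argonaute, differed by 0.04 with an interval of -0.25 to 0.33, and its sign turned in 7 alternatives.

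Lipid synthesis held the gene lists with the highest medians. Sterol synthesis is governed by SREBP transcription factors, which INSIG proteins hold back in the endoplasmic reticulum when sterol is plentiful. Of 20 genes of cholesterol synthesis and uptake, 18 (90.0%, beside 54.6% of all genes) stood above 0 with the scrambled siRNA, with a median of 0.18. None passed the limma test, and 6 (30.0%, beside 6.0% of all genes) were higher and 0 lower at an unadjusted p under 0.05. These genes are known to share their control, so that their counts are not independent.

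INSIG1, itself a known SREBP target, had the smallest p of the list. Its promoter from RefSeq (GRCh38.p14, chr7:155297628-155297927, plus strand, the same kind of window) is shown with the E-box in capitals, a motif that SREBP and DEC1 are both known to bind.
INSIG1: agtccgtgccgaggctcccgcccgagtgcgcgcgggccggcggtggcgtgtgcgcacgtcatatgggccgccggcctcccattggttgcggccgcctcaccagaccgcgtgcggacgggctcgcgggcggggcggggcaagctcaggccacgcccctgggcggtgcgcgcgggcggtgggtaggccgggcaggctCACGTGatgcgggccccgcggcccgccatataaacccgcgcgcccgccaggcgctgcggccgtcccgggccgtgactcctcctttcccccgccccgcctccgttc
The motif begins 55 bases before the start. An E-box was found in 3 of 18 promoters of the cholesterol list with a sequence in the table (INSIG1 and LSS among them), and the sterol element TCACNCCAC, searched on both strands, in 1 of 18, or 16.7% and 5.56%. Among the promoters of genes tested the shares were 10.7% and 1.07%. Of 14 promoters of the fatty acid list, 1 held an E-box and 0 the sterol element.

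INSIG1 stood at 10.30, 10.49 and 10.71 with the scrambled siRNA at 12 hours and at 10.82, 10.53 and 10.97 at 24 hours. The vehicle arrays gave 10.07, 10.05 and 10.37, then 10.54, 10.05 and 10.46. The lowest scrambled arrays of each time lay within the range of the vehicle arrays. The difference was 0.38 ± 0.11 (limma adjusted p = 0.291), 0.38 within either array set, and a second, dimmer probe gave 0.22.

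LPIN1, a phosphatidate phosphatase known as an SREBP target, differed by 0.30 ± 0.10 (adjusted p = 0.332). LSS, which closes the sterol ring, stood at 8.24, 8.30 and 8.62, then 8.60, 8.18 and 8.60, against 8.34, 8.04 and 8.21, then 8.16, 7.89 and 8.06. Its difference was 0.31 ± 0.10 (adjusted p = 0.351), with 0.46 in the first and 0.15 in the second array set. MVK, mevalonate kinase, differed by 0.22, HMGCS1, the HMG-CoA synthase, by 0.27, and NSDHL by 0.18. PMVK and HSD17B7 differed by -0.02 and -0.01, the 2 members below 0.

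The median of the cholesterol list relative to the vehicle mean of the same time was 0.06, 0.09 and 0.43 on the scrambled arrays of 12 hours and 0.28, 0.08 and 0.36 on those of 24 hours. On the vehicle arrays it was -0.04, -0.09 and 0.09, then 0.05, -0.16 and 0.10. The 3 arrays of the first set (12 hours replicate 3 and 24 hours replicates 1 and 3) stood highest in both groups. Within each set every scrambled array lay above every vehicle array, with 0.28 to 0.43 against 0.05 to 0.10 in the first set and 0.06 to 0.09 against -0.16 to -0.04 in the second. The part of the array sets in this difference was not tested beyond the values given within each set.

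Of 18 genes of fatty acid synthesis and lipid droplets, 13 (72.2%, beside 54.6% of all genes) stood above 0 with a median of 0.16. None passed the limma test, and 7 (38.9%, beside 6.0% of all genes) were higher and 0 lower at an unadjusted p under 0.05. SCD, the desaturase that makes oleate, stood at 12.34, 12.47 and 12.49 with the scrambled siRNA at 12 hours and at 12.53, 12.44 and 12.51 at 24 hours. Vehicle gave 12.38, 12.13 and 12.18, then 12.28, 12.21 and 12.16, and 1 scrambled array of 12 hours lay within the vehicle range. The difference was 0.24 ± 0.07 (adjusted p = 0.253).

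FADS1, which desaturates polyunsaturated fatty acids, differed by 0.32 ± 0.10 (adjusted p = 0.337). FASN, the fatty acid synthase, differed by 0.21, and ACSS2, which makes acetyl-CoA from acetate, by 0.21. THRSP, 1 of the 7, was detected on 1 scrambled array and no vehicle array, and no fold is given. PLIN3, a coat protein of lipid droplets, differed by 0.15 ± 0.06 without overlap of the groups. At the other end ANGPTL4, an inhibitor of lipoprotein lipase, differed by -0.22, ELOVL5 by -0.20 and the mitochondrial carnitine transferase CPT1A by -0.11. SREBF2, which encodes SREBP-2, was detected on 2 scrambled arrays and 1 vehicle array, too near background for a fold, and SREBF1 differed by -0.05.

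**Figure D3:**
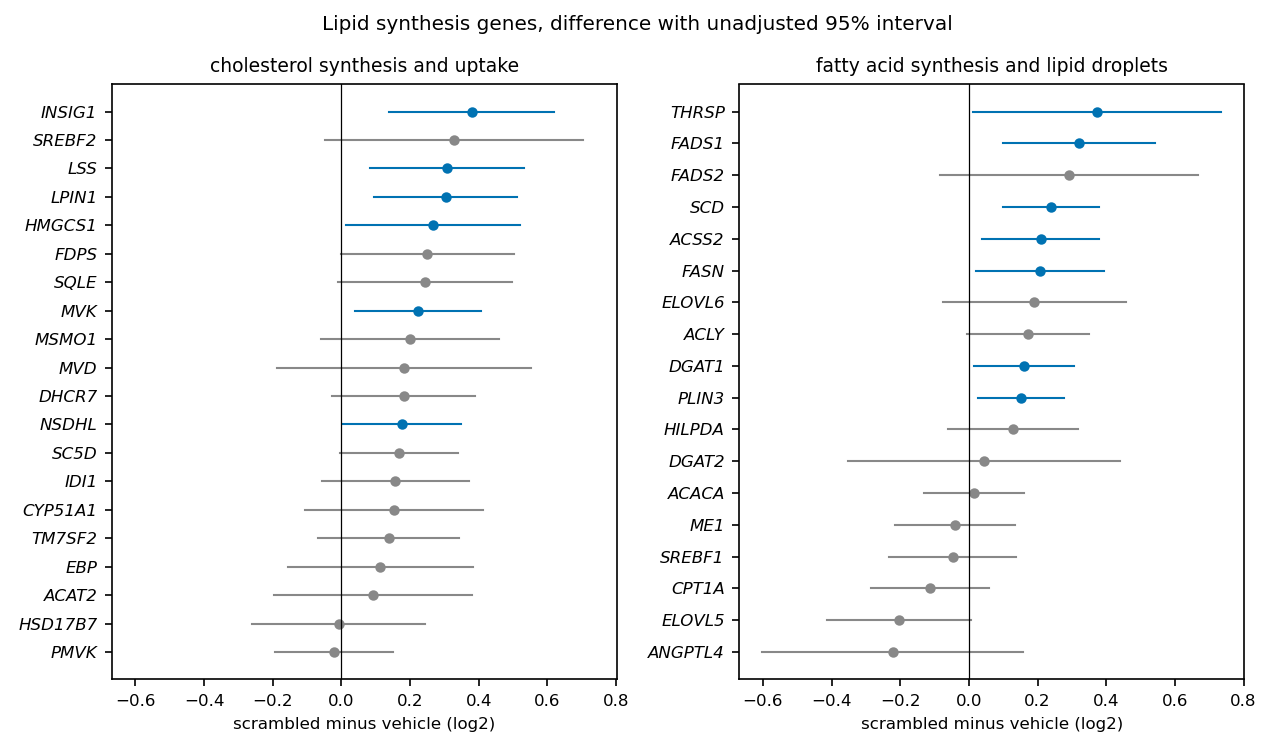
Difference between scrambled siRNA and vehicle (log2, both times) for 20 genes of cholesterol synthesis and uptake and 18 of fatty acid synthesis and lipid droplets, with the unadjusted 95% interval. Blue marks an unadjusted p under 0.05, which 6 and 7 genes reached, and no gene shown passed the adjusted test.

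The endosome and lysosome lists had medians near 0. Of 29 genes of endocytosis and endosomal sorting, 0 passed the limma test, 5 were lower and 0 higher at an unadjusted p under 0.05 (17.2%, beside 3.91% of all genes lower), and the median was -0.00015. EEA1, the tether of early endosomes, stood at 5.28, 4.95 and 5.69 with the scrambled siRNA at 12 hours and at 5.05, 5.11 and 5.05 at 24 hours. The vehicle values were 5.75, 5.33 and 5.73, then 5.67, 5.40 and 5.89. The difference was -0.44 ± 0.13 (adjusted p = 0.292), with 1 and 5 of 6 arrays above the detection limit. At 24 hours EEA1 was detected on no scrambled array, so that the fold there is a bound, at least 1.07-fold lower. The early endosome GTPases RAB4A and RAB5A differed by -0.21 each, the dynamin DNM2 by -0.25 and clathrin heavy chain, CLTC, by -0.27. RAB7A of late endosomes differed by -0.03, the transferrin receptor TFRC by -0.07 and the AP-2 subunits AP2A1 and AP2M1 by 0.07 and 0.08.

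Of 23 genes of lysosome and autophagy, 0 passed the limma test, and the median was 0.03. At an unadjusted p under 0.05, 2 were lower (8.70%, beside 3.91% of all genes) and 2 higher (8.70%, beside 6.0%). NPC1, which moves cholesterol out of lysosomes, stood at 9.0 to 9.29 with the scrambled siRNA and 9.32 to 9.59 with vehicle, without overlap. Its difference was -0.27 ± 0.07 (adjusted p = 0.234), beside -0.48 for WIPI1, whose scrambled arrays lay near background. The lysosomal enzymes TPP1 and NEU1 differed by 0.20 and 0.24.

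Of 16 glucose-responsive and hypoxia genes, 14 stood below 0 (12.5% above 0, beside 54.6% of all genes), and the median was -0.10. None passed the limma test. At an unadjusted p under 0.05, 2 were lower (12.5%, beside 3.91%) and 1 higher (6.25%, beside 6.0%). TXNIP, an arrestin-like protein that follows glucose, stood at 10.64, 10.51 and 10.38 with the scrambled siRNA at 12 hours and at 10.53, 10.71 and 10.44 at 24 hours. The vehicle values were 10.98, 11.05 and 10.64, then 10.63, 10.84 and 10.58. The groups touched at 12 hours and overlapped at 24 hours. Its difference was -0.25 ± 0.09 (adjusted p = 0.397), and that of its relative ARRDC4 -0.33 ± 0.10 (adjusted p = 0.283). The carbonic anhydrase CA12 differed by 0.23 and VEGFA by 0.15, the 2 members above 0. A second, dimmer CA12 probe gave -0.05. HIF1A differed by -0.15 and the mitophagy receptor BNIP3 by -0.13.

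Of 20 glycolysis genes, 0 passed the limma test. At an unadjusted p under 0.05, 2 were lower (10.0%, beside 3.91% of all genes) and 1 higher (5.0%, beside 6.0%). The regulator PFKFB4 differed by 0.30 ± 0.08 (adjusted p = 0.232), aldolase A, ALDOA, by -0.23 and PGAM1 by -0.21. A second ALDOA probe gave 0.01, so that the probes of this gene disagreed.

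Stress programmes were close between the controls. Of 38 ATF4 and amino acid response genes, 28 (73.7%, beside 54.6% of all genes) stood above 0 with a median of 0.06, and 0 passed the limma test. At an unadjusted p under 0.05, 3 were higher (7.89%, beside 6.0%) and 1 lower (2.63%, beside 3.91%). AARS1, the alanyl-tRNA synthetase, differed by 0.26 ± 0.06 (adjusted p = 0.206), the secreted protein STC2 by 0.26 and the pseudokinase TRIB3 by 0.25, each without overlap of the groups. Over all genes tested 0.822% showed no overlap. Here and in the other lists members were named by smallest p, so their separation is a description. CTH, of cysteine synthesis, differed by -0.19. None of 26 genes of the endoplasmic reticulum unfolded protein response passed the limma test or an unadjusted p under 0.05 (0 genes), and their median was 0.0014.

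Of 18 cytosolic heat shock genes, 1 was higher at an unadjusted p under 0.05, the co-chaperone BAG3 with a difference of 0.15. Of 18 NRF2 antioxidant genes, 1 was lower, the ketosteroid reductase AKR1C2 at -0.33 ± 0.11. Of 19 p53 targets, 1 was higher, TP53I3 at 0.39 ± 0.10. Of 18 immediate early genes, 1 was higher, FOSL2 at 0.24, while ATF3 differed by -0.17. Of 18 apoptosis genes, 1 was higher, the death receptor TNFRSF10A at 0.30 ± 0.09. None of these genes passed the limma test (0 in each list). A single gene was 5.26% of the p53 list and 5.56% of each of the others. Over all genes 6.0% were higher and 3.91% lower, so these counts were near those shares.

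**Figure D4:**
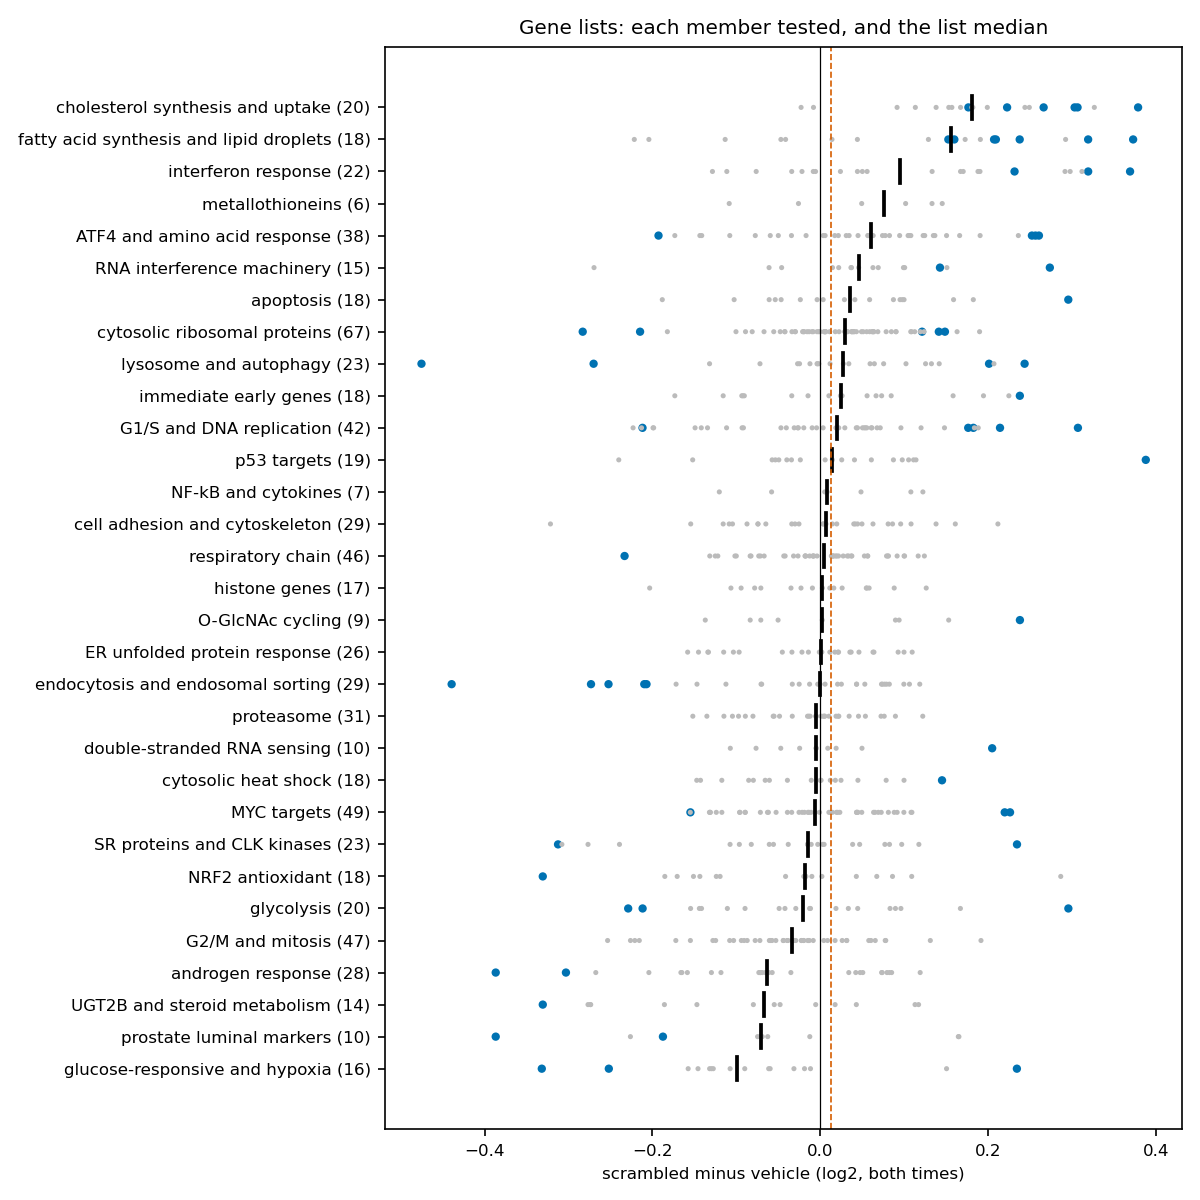
Difference between scrambled siRNA and vehicle (log2, both times) of each gene of the lists with at least 5 members tested, with the number tested in brackets. Each point is a gene, blue where the unadjusted p is under 0.05, a black bar marks the list median, and the dashed line the median of all 10345 genes (0.0123). List medians ran from -0.10 to 0.18, and no gene shown passed the adjusted test.

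Cell cycle genes differed little between the controls. Of 47 genes of G2/M and mitosis, 0 passed the limma test and 0 had an unadjusted p under 0.05. Of these genes 34 stood below 0 (27.7% above 0, beside 54.6% of all genes), and the median was -0.03. NDC80, NEK2 and ECT2 differed by -0.22, -0.25 and -0.23, with intervals that included 0. The list median followed the array sets: relative to the vehicle mean of the same time it was 0.32 and 0.34 on scrambled and vehicle 12 hours replicate 3, and -0.41 and -0.31 on scrambled and vehicle 24 hours replicate 2. Of 42 genes of G1/S and DNA replication, 0 passed the limma test, and the median was 0.02. At an unadjusted p under 0.05, 4 were higher (9.52%, beside 6.0% of all genes) and 1 lower (2.38%, beside 3.91%). The transcription factor E2F2 differed by 0.31 ± 0.08 (adjusted p = 0.234), cyclin E1, CCNE1, by 0.18 and the histone mRNA binding protein SLBP by -0.21. Of 49 MYC targets, with a median of -0.0058, 2 were higher (4.08%, beside 6.0%) and 1 lower (2.04%, beside 3.91%) at an unadjusted p under 0.05. Among them were the chaperonin CCT5 at 0.22 and ODC1 at -0.15.

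Of 28 androgen response genes, 18 stood below 0 (35.7% above 0, beside 54.6% of all genes) with a median of -0.06. None passed the limma test, and 2 were lower and 0 higher at an unadjusted p under 0.05 (7.14%, beside 3.91%). KLK2, a kallikrein protease of the prostate, stood at 6.97, 6.38 and 6.90 with the scrambled siRNA at 12 hours and at 7.30, 6.79 and 6.72 at 24 hours. With vehicle it stood at 7.40, 7.40 and 6.98, then 7.14, 7.27 and 7.18, and 1 scrambled array of 24 hours lay within their range. The difference was -0.39 ± 0.13 (adjusted p = 0.351), and that of the GTPase RAB3B -0.30 ± 0.09 (adjusted p = 0.306). Of 10 luminal markers, 8 stood below 0 (20% above 0, beside 54.6% of all genes) with a median of -0.07. None passed the limma test, and 2 (20%, beside 3.91%) were lower at an unadjusted p under 0.05. Besides KLK2, EPCAM differed by -0.19, KRT18 by -0.23 and HOXB13, 1 of the 2 members above 0, by 0.16. Further EPCAM probes gave -0.09 and -0.31, and a second KRT18 probe gave -0.06. Of 9 genes of O-GlcNAc cycling, 1 was higher at an unadjusted p under 0.05 (11.1%, beside 6.0% of all genes). This was the glucosamine-phosphate deaminase GNPDA1, with a difference of 0.24 (limma adjusted p = 0.376).

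At 12 hours 0 genes (0%) passed the limma test, the lowest adjusted p was 1, and 458 genes had an unadjusted p under 0.05. At 24 hours 0 genes (0%) passed, 742 were higher and 523 lower at an unadjusted p under 0.05, and the median absolute difference was 0.13 against 0.09 at 12 hours. The difference between the times was tested as an interaction and called 0 genes (0%), with 568 at an unadjusted p under 0.05 and a lowest adjusted p of 0.529. The 24 hours groups hold 2 arrays of the first array set and the 12 hours groups 1, so that time and array set are mixed in that test. The median standard error was 0.13 for a difference within a time and 0.18 for the interaction.

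Precision depended on brightness, by which the genes were cut into 5 equal groups. In the dimmest group, with mean log2 levels of 4.79 to 5.93, the median standard error was 0.14, against 0.07 in the brightest. Median differences ran from 0.0011 in the dimmest to 0.016 in the brightest group. In the dimmest 115 genes were higher and 103 lower at an unadjusted p under 0.05, and in the brightest 78 and 49.

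The siOGT arrays hold cells that received an siRNA too, and their values against the same 6 vehicle arrays are given beside those of the scrambled siRNA. The comparisons share the vehicle arrays, so that likeness between them is no separate evidence. With siOGT 47 genes (0.454%) passed the limma test against vehicle over both times. BHLHE40 stood 0.38 above vehicle with siOGT (adjusted p = 0.0471), against 0.60 with the scrambled siRNA, and the siOGT levels of 8.15 to 8.40 lay above every vehicle array. SLC35B4 stood 0.67 above vehicle with siOGT (adjusted p = 0.00266), CNTNAP2 0.42, TCEA3 0.30 and TGIF2 0.18. FOXN4 was detected on 6 of 6 siOGT arrays and stood at least 1.25-fold above vehicle. TMED7 stood at -0.13 with siOGT and C9orf72 at -0.11. WIPI1 and HGH1 were each detected on 1 of 6 siOGT arrays, with mean levels of 5.12 and 4.98.

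LMLN went the other way, at 0.27 with siOGT and -0.77 with the scrambled siRNA, and its siOGT arrays lay between 6.13 and 6.53, above every vehicle and every scrambled array. The median of the cholesterol list was 0.38 with siOGT and 0.18 with the scrambled siRNA, and that of the fatty acid list 0.07 and 0.16. The interferon list gave 0.0047 and 0.09, and the glucose-responsive and hypoxia list -0.02 and -0.10. DICER1 stood 0.63 above vehicle with siOGT (adjusted p = 0.0404) and 0.27 with the scrambled siRNA. The difference between the 2 siRNAs is not tested here for these genes.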

How the data were processed

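Biotin-labelled total RNA was read on Illumina bead arrays. The authors' deposited table held raw probe intensity and a detection p-value for each of 24 arrays, per the file headers, and a second deposited table held processed intensity values on a linear scale, used as an alternative. The submitters' processing notes name GenomeStudio 2011.1, and how the second table was normalized was not given in the sources used here.

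On the raw values, neqc of limma 3.58.1 (R 4.3.3, data.table version 1.17.8; normexp from detection p-values, offset 16, quantile normalization, log2) was applied over all 24 arrays, which shrinks differences of dim genes. A probe was kept where its detection p was under 0.01 on 3 arrays or more (17633 of 47323). The platform annotation gave 30113 probes 1 gene symbol, 8 several and 17202 none. Symbols were set against RefSeq by Entrez identifier (0 updated, 39 unmatched), and 4010 kept probes without a single name stayed out. The brightest probe stood for a gene, which left 10345.

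The 12 scrambled and vehicle arrays were fitted in limma with treatment and time, and 4 group means gave each time and the interaction. P-values were adjusted over all 10345 genes (Benjamini-Hochberg) and called under 0.05. The scripts were tested on simulated data. Scrambled and vehicle, time and grouping were taken from the titles. The rule named the called genes, then up to 6 of smallest p in each direction, 4 members of smallest p of each list and 10 genes always given, and other genes of the lists were added as examples. The members and the 36 gene lists were chosen with earlier results of these data known. Alternatives were other background correction, scaling, offset, filters and fits, the replicate block, the array sets and leaving out each array.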

Additional observations from a re-analysis of the deposited data

Results flagged for a closer look

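Among the 4010 detected probes without a single gene name, which no comparison used, 1 probe passed the limma test when all 17633 kept probes were fitted together. Probe ILMN_3310491 stood between 12.9 and 13.1 on the 6 scrambled arrays and between 12.1 and 12.6 on the 6 vehicle arrays, and was detected on all 12. The difference was 0.76 ± 0.08 on the log2 scale (limma adjusted p = 0.0025 over all kept probes), above the vehicle level on every scrambled array. On the siOGT arrays it stood between 12.7 and 13.4. Its transcript is not named here.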

How the results depend on the processing

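The count of genes called over both times was 1. It was 3 without background correction, 3 with the authors' processed values, 3 with array quality weights, 2 with offset 50, 2 with probes detected on 6 or more of the 12 arrays, 2 with the array set as a block, and 0 with median scaling, with probes detected on 1 array or more and without a detection filter. One fit of 8 groups over 24 arrays called 16 genes, 10 higher and 6 lower. The replicate block of 6 pairs called 0, and replicate number 1 to 3 as a block called 1. No source says what the replicate numbers share, so the numbers were not taken as pairs. The main fit therefore leaves out any variation that same-numbered arrays share. Same-numbered arrays correlated in their deviations at 0.027 to 0.240, each positive. In 5 of 6 cases an array correlated best with its own number, a hint of pairing from the data, not the design. Within the first and second array sets 0 genes passed the limma test (1205 and 524 at an unadjusted p under 0.05). At 24 hours, with 0 called, the count was 9 without background correction, 7 with the processed values, 9 in the fit of 8 groups, and 1 each with median scaling, with probes detected on 6 or more arrays and with the array set as a block. Leaving out each array gave 0 to 5 genes over both times, 0 to 3 at 24 hours, 0 to 1 for the interaction (PMS1 without scrambled 12 hours replicate 3) and 0 to 0 at 12 hours. The 5 came without scrambled 12 hours replicate 1, and the 3 without vehicle or without scrambled 12 hours replicate 3. The cause of these changes was not tested, except that fewer or more genes tested change the adjustment.

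The BHLHE40 difference, both times in 1 fit, was called in 11 of 26 alternatives and ran from 0.45 to 0.63. Its adjusted p reached 0.484 with median scaling, 0.175 with the replicate block of 6 pairs, 0.0551 and 0.0531 with the looser filters, and 0.0570 when all kept probes were fitted, an alternative that was chosen after seeing the data. Of 3869 values of 149 named genes, 3754 kept their size and call, 78 moved by more than the replicate spread, 15 lost and 22 gained a call, and 0 called values reversed, while 24 genes changed sign somewhere. The number of arrays and, for dim genes, signal near background limit every value.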

Other observations

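The remaining gene lists held few genes that differed between the controls, and none of their members passed the limma test (0 genes). Of 67 cytosolic ribosomal protein genes, 43 (64.2%, beside 54.6% of all genes) stood above 0 with a median of 0.03. At an unadjusted p under 0.05, 3 were higher (4.48%, beside 6.0%) and 2 lower (2.99%, beside 3.91%). RPS28 and RPL7 differed by -0.28 and -0.21, and probes of such genes may also read their processed copies. Of 46 respiratory chain genes, 23 (50%) stood above 0. Only the complex I subunit NDUFB9, at -0.23, was lower at an unadjusted p under 0.05 (2.17%, beside 3.91% of all genes). Of 31 proteasome genes 0 had an unadjusted p under 0.05, and the median was -0.0044.

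Of 23 SR proteins and their kinases, the splicing factor SRSF11 differed by -0.31 and the kinase SRPK2 by 0.23, but 2 dimmer SRPK2 probes gave -0.09 and -0.40. Of 14 genes of UGT2B and steroid metabolism, 10 stood below 0 (28.6% above 0, beside 54.6% of all genes). UGT2B10 and UGT2B28, near-identical copies that probes may not separate, differed by -0.27 each. None of 29 adhesion and cytoskeleton genes had an unadjusted p under 0.05, and among them the integrin subunit ITGA3 differed by -0.32 with an interval of -0.70 to 0.06, and was detected on 1 scrambled and 3 vehicle arrays. None of 17 histone genes or 6 metallothionein genes had an unadjusted p under 0.05, and of the 3 aryl hydrocarbon receptor genes tested AHR itself differed by 0.07. The metallothionein median, relative to the vehicle mean of the same time, followed the array sets. In the first set it was -0.61 and -0.59 on vehicle and scrambled 12 hours replicate 3. It was -0.37 and -0.34 on 24 hours replicate 1, and -0.37 and -0.18 on 24 hours replicate 3. In the second set it was 0.04 and -0.01 on 12 hours replicate 1. It was 0.57 and 0.71 on 12 hours replicate 2, and 0.76 and 0.68 on 24 hours replicate 2. The fit did not take out this spread, and metallothionein standard errors ran from 0.19 to 0.37. HLA-DRA differed by 0.24 (adjusted p = 0.363), and the other detected markers of other cell types, VIM, ACTA2, ENO2 and CD68, by -0.15, 0.10, 0.10 and 0.02.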
